A study of Mus musculus with 3 samples.

Results

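The clustered protocadherin locus of mouse chromosome 18 was examined in a list of potential FAIRE peaks from mouse embryonic stem cells. The members were the listed intervals whose midpoint lay between 36.5 and 38.5 Mb of chromosome 18 in the mm9 build. This rule uses position only, but it was set with earlier results of these data known. They numbered 630 of the 348759 intervals of the list (0.181%) and of the 9350 on chromosome 18 (6.74%). The region was cut into 40 bins of 50 kb. The alpha, beta and gamma protocadherin arrays were placed at about 37.05 to 38.02 Mb. The 19 bins that lay wholly inside these limits held 197 intervals. The left flank of 11 bins held 184 intervals and the right flank of 9 bins held 212. The bin at 38000001 to 38050000, which straddles the right end of the arrays, held 37 and was kept apart.

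FAIRE uses formaldehyde and phenol extraction to collect DNA with little bound protein, mostly promoters and enhancers from which nucleosomes are missing. The series had 3 samples, all from feeder-free wild type stem cells of a mixed 129Sv-C57Bl/6 background. They were a genomic DNA input and 2 FAIRE samples, 1 from cells treated for 16 h with 500 nM ICRF-193 and 1 from control cells treated with DMSO. ICRF-193 is a catalytic inhibitor of topoisomerase II, and the titles of both FAIRE samples join replicates 1 and 2. The list names no sample, so no value here compares DMSO with ICRF-193 and there are no replicates. Read depth is unknown. Because bins and intervals of 1 list are not replicates, no p-value is given, and the 95% intervals cover counting error only.

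Clustered protocadherins are cadherin-family adhesion molecules that act mainly in neurons, where each cell uses a small set of them as a surface identity code. In the alpha and gamma arrays, variable exons stand in tandem, each with its own promoter, and are spliced to constant exons shared by the array. The beta array is a row of single-exon genes. The choice of promoter involves the insulator protein CTCF and cohesin, which loop distant enhancers to the chosen promoter.

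A RefSeq gene table of another build, GRCm38.p6, was used for names and order only. It lists 58 array genes, which are 14 Pcdha genes (Pcdha1 to Pcdha12, then Pcdhac1 and Pcdhac2), 22 Pcdhb genes (Pcdhb1 to Pcdhb22) and 22 Pcdhg genes (Pcdhga1 through Pcdhgc5). Of these, 57 are protein-coding and 1, Pcdhgb8, is a transcribed pseudogene. Slc25a2, which encodes a mitochondrial ornithine carrier, and Taf7, which encodes a subunit of the general transcription factor TFIID, lie between the beta and gamma arrays. The 10 nearest protein-coding neighbours on the alpha side are, outward, Zmat2, Hars2, Hars, Dnd1, Wdr55, Ik, Ndufa2, Tmco6, Cd14 and E230025N22Rik. They include the histidyl-tRNA synthetase genes Hars and Hars2, the germ cell RNA-binding factor gene Dnd1 and the respiratory complex I gene Ndufa2. On the gamma side they are Diaph1, Hdac3, Rell2, Fchsd1, Arap3, Pcdh1, Dele1, Pcdh12, Rnf14 and Gnpda1. Among these are the actin nucleator gene Diaph1, the histone deacetylase gene Hdac3 and the non-clustered protocadherin genes Pcdh1 and Pcdh12. Intervals were not assigned to genes, since an mm9 annotation was not used here. For the same reason the limits of the arrays were taken as given and not checked.

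The arrays held fewer intervals than their flanks. Across the 19 array bins the count ranged from 0 to 52, with a median of 6 and an interquartile range of 2 to 12.5. The mean was 10.4 ± 12.8 intervals per bin (SD over bins). The left flank had a median of 13 (range 0 to 43) and a mean of 16.7 ± 12.9, and the right flank had a median of 22 (range 11 to 41) and a mean of 23.6 ± 9.72. The counts of arrays and flanks therefore overlapped widely. Mean density in the arrays was 0.52 times that of both flanks together (95% interval 0.44 to 0.62), at 10.4 against 19.8 intervals per bin. It was 0.62 times the left flank (0.50 to 0.76) and 0.44 times the right flank (0.36 to 0.54).

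Intervals covered 3.03% of the bases of the arrays, 4.56% of the left flank and 5.02% of the right flank. The ratio of covered bases between the arrays and both flanks was 0.63.

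Taken whole, both the arrays and the flanks were richer in intervals than the average of the autosomes. The median 50 kb bin of the 19 autosomes held 3 intervals and that of chromosome 18 held 2. Bins with no interval made up 28.5% of the 48270 autosomal bins, whereas 1 of 19 array bins and 1 of 20 flank bins were empty. The mean density of the arrays was 1.45 times the autosomal mean of 7.14 per bin and 1.95 times the chromosome 18 mean of 5.32. The flanks were at 2.77 and 3.72 times these means. Of 47928 runs of 19 consecutive autosomal bins, 75.1% held fewer intervals than the arrays and 84.7% had fewer covered bases. The left flank exceeded 88.3% of runs of 11 bins by count, and the right flank exceeded 94.7% of runs of 9 bins. This place depended on the last bins. The mean was 6.59 intervals per bin without the last 2 array bins and 5.53 without the last 4, both below the autosomal mean, while the medians of 6 and 4 were above the autosomal median.

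**Figure D1:**
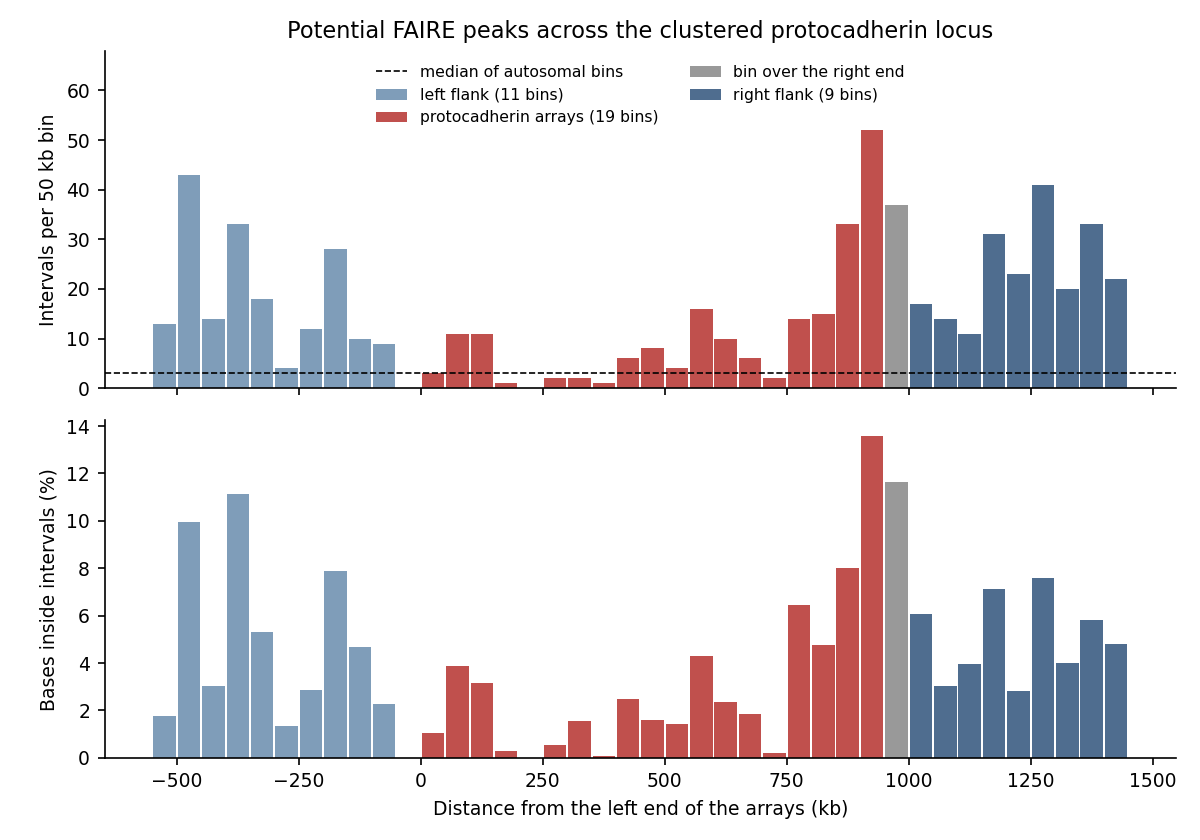
Intervals per 50 kb bin (upper panel) and percent of bases inside intervals (lower panel) against the distance from the left end of the arrays in kb, with 1 bar per bin and the median autosomal bin of 3 intervals dashed. The first 17 array bins hold at most 16 intervals each, and the last 2 rise to 33 and 52.

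**Figure D2:**
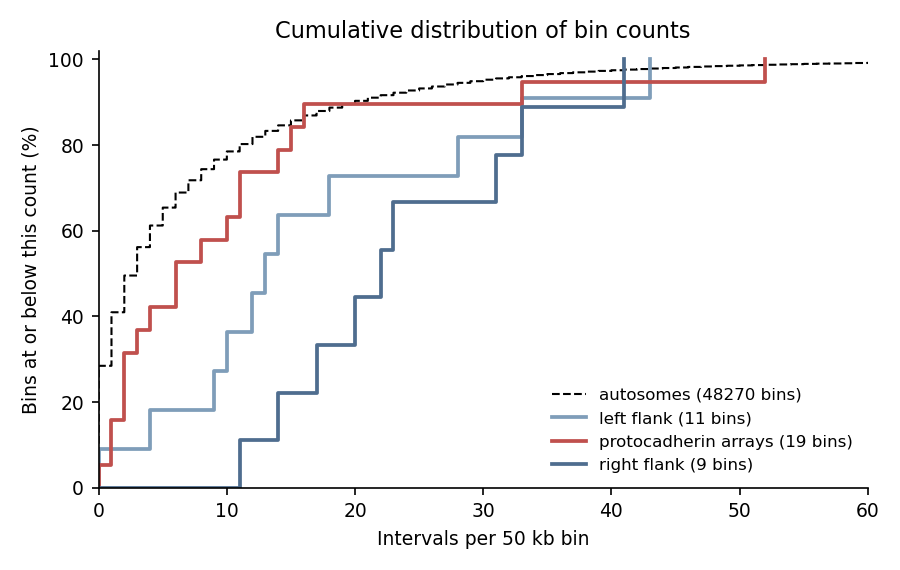
Cumulative percent of bins at or below a given number of intervals per 50 kb bin, for the arrays, each flank and the 48270 autosomal bins. At 50% the curves cross 3 intervals for the autosomes, 6 for the arrays, 13 for the left flank and 22 for the right flank.

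The arrays were not uniform, and 3 stretches were told apart after the counts had been seen. The first 5 bins, at 37050001 to 37300000, held 3, 11, 11, 1 and 0 intervals in order. Here intervals were mostly in the bins at 37100001 to 37150000 and 37150001 to 37200000, and covered 1.68% of bases. The next 10 bins, at 37300001 to 37800000, held 57 intervals, from 1 to 16 per bin with a median of 5, and 1.64% of bases were covered. The fullest of these was the bin at 37600001 to 37650000 with 16 intervals, which 85.8% of autosomal bins did not reach.

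The last 4 bins, at 37800001 to 38000000, held 14, 15, 33 and 52 intervals, or 57.9% of the intervals of the arrays. They covered 8.19% of bases, above either flank as a whole. The final bin, at 37950001 to 38000000, was the fullest of all 40 bins and 13.6% of its bases were covered. The straddling bin followed with 37 intervals and 11.6% of bases covered, and the count then fell to 17, 14 and 11 in the first bins of the right flank. At the left end there was no such rise. The bin at 37000001 to 37050000 was empty, and the 2 bins before it held 10 and 9.

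The density of the arrays rested in part on their last bins. Without the last 2 bins, the arrays held 112 intervals and 0.33 times the density of the flanks (0.27 to 0.41). Without the last 4 bins the ratio was 0.28 (0.22 to 0.35).

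The left flank was uneven as well. Its counts were 13, 43, 14, 33, 18, 4, 12, 28, 10, 9 and 0 from left to right. The fullest were the bins at 36550001 to 36600000, 36650001 to 36700000 and 36850001 to 36900000, with 43, 33 and 28 intervals, of which the middle one had the highest coverage, 11.2%. In the right flank the counts were 17, 14, 11, 31, 23, 41, 20, 33 and 22, so that each bin was above the autosomal median. The fullest there were the bins at 38300001 to 38350000 with 41 intervals, 38400001 to 38450000 with 33 and 38200001 to 38250000 with 31.

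Strong intervals were about as frequent per bin in the arrays, taken whole, as in the flanks. High-score intervals were defined as the top 10% of the list by the authors' deposited score, which is at least 0.0237 against a list median of 0.0137. The arrays held 43 of them and the flanks 42, or 2.26 and 2.1 per bin. The ratio was 1.08, with an interval of 0.69 to 1.69 that includes 1. The left flank had 2.09 and the right flank 2.11 per bin, and the autosomes 0.71. Low-score intervals, those below the list median and so 50% of the list by definition, numbered 4.37 per bin in the arrays and 9.3 in the flanks, a ratio of 0.47 (0.36 to 0.61). The class between them was at 3.74 against 8.4 per bin, a ratio of 0.44 (0.33 to 0.59). Without the last 2 bins of the arrays the low-score ratio was 0.22 (0.15 to 0.32), and the high-score ratio was 0.92 (0.57 to 1.49). The likeness rested in part on the last 4 array bins, which held 23 of the 43 high-score intervals. The other 15 array bins held 20, against 42 in the 20 flank bins.

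High-score intervals accordingly made up 21.8% of the intervals of the arrays (exact binomial interval 16.3 to 28.3%). They made up 12.5% of the left flank (8.09 to 18.2%), 8.96% of the right flank (5.48 to 13.6%) and, by definition, 10% of the list. The share in the arrays was 2.06 times that in both flanks (1.39 to 3.04). Neighbouring intervals are not independent, so these intervals are too narrow. Against only the nearest 250 kb on each side the ratio was 1.54 and its interval, 0.96 to 2.46, included 1.

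Along the arrays the high-score share was 30.8% (8 of 26, interval 14.3 to 51.8%) in the first 5 bins. It was 21.1% (12 of 57, 11.4 to 33.9%) in the next 10 bins and 20.2% (23 of 114, 13.2 to 28.7%) in the last 4. These intervals overlap widely. In the last 2 bins alone, where the count was highest, it was 11.8% (10 of 85, 5.79 to 20.6%). Of the array bins, 12 of 19 held a high-score interval, against 17 of 20 flank bins and 34.6% of autosomal bins. The most in any 1 array bin was 7, at 37800001 to 37850000, and the most in any flank bin was 4.

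**Figure D3:**
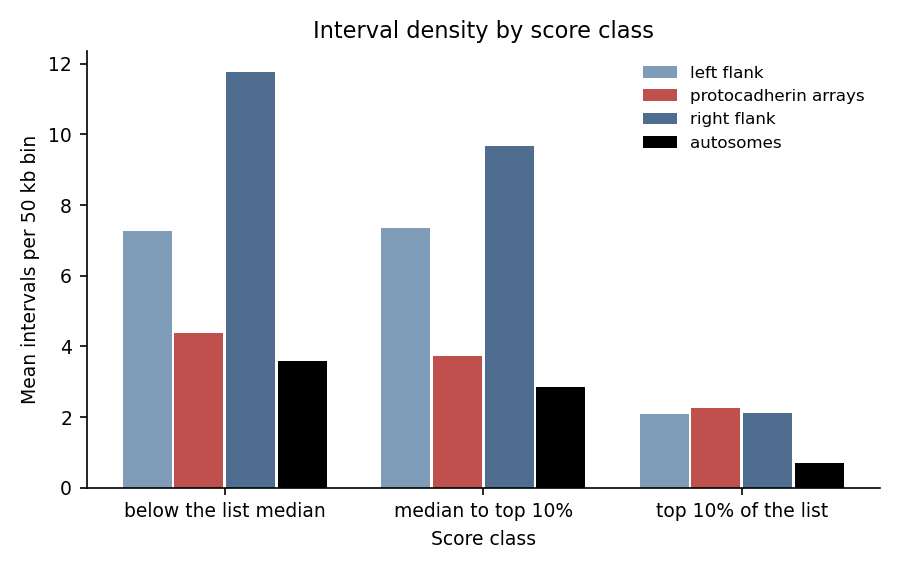
Mean number of intervals per 50 kb bin (bars from 0) by score class for the left flank, the arrays, the right flank and the autosomes. The arrays are below both flanks in the lower classes (4.37 and 3.74 per bin) and level with them in the top 10% of the list (2.26 per bin).

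Widths differed in part. In the arrays the median interval was 104 bp wide (interquartile range 9 to 239), against 74 bp in the left flank, 41 bp in the right flank and 41 bp on the autosomes. The arrays were mixed in this, with a median of 32 bp in their last 2 bins and 150.5 bp without these. Of the array intervals, 31.0% spanned 200 bp or more (24.6 to 37.9%), as did 26.6% of the left flank (20.4 to 33.6%) and 18.9% of the right flank (13.8 to 24.8%), against 20.1% of the list. The interval of the left flank overlaps that of the arrays. Other measures of width did not follow the median. Intervals of at most 10 bp were 28.4% in the arrays, 23.9% in the left flank and 28.3% in the right flank. High-score intervals had a median width of 295 bp in the arrays, 373 bp in the left flank and 305 bp in the right flank. Score and width are tied in this list, so width is not separate support for the difference in score.

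The highest scores of the region lay outside the arrays, while the arrays and the right flank were alike in the number of very high scores. At or above the 99th percentile of the list (0.0456) were 2 of 197 intervals in the arrays and 2 of 212 in the right flank. Both are near the autosomal share, 3356 of 344785. In the left flank there were 5 of 184 and in the straddling bin 3 of 37. The median score among high-score intervals was 0.0300 in the arrays, 0.0337 in the left flank and 0.0295 in the right flank.

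The highest-scoring array interval was at 37677801 to 37678115 (315 bp), with a score of 0.0478 or 3.50 times the list median. Next came the interval at 37931087 to 37931508 (422 bp), with 0.0469. The next 3 all lay in the bin at 37800001 to 37850000, at 37803737 to 37804170 (0.0409), 37833756 to 37834100 (0.0400) and 37828354 to 37828656 (0.0393). Of the remaining 5 of the first 10, which scored 0.0358 to 0.0385, 4 lay beyond 37.8 Mb. The exception was at 37377469 to 37378179. It was 711 bp wide and scored 0.0385. An interval-free stretch of 46.2 kb lay on its right, and 1 of 38.9 kb lay on its left beyond a single further interval. The widest array interval, at 37985939 to 37986719, was 781 bp wide and scored 0.0316. It formed, with its neighbours, a region of 12 intervals at 37983945 to 37986743, of which 74.5% was covered. That region was singled out after its values were seen and is the largest by count in the arrays.

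Flank intervals reached higher. The interval at 36719417 to 36720315 of the left flank, 899 bp wide, scored 0.0692 or 5.07 times the list median, the highest of the whole region. It was followed in that flank by intervals at 36904060 to 36904495 (0.0609), 36953299 to 36953689 (0.0548), 36681591 to 36682151 (0.0507) and 36961281 to 36961651 (0.0488). The next widest of the left flank were at 36574918 to 36575800 (883 bp) and 36889910 to 36890608 (699 bp). In the right flank the highest were at 38409747 to 38410436 (0.0515) and 38092058 to 38093007 (0.0492), which were also the widest there at 690 and 950 bp. The other 3 of the first 5 in that flank scored 0.0399 to 0.0429. The straddling bin held an interval at 38043130 to 38043576 with a score of 0.0597, outside the limits of the arrays.

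**Figure D4:**
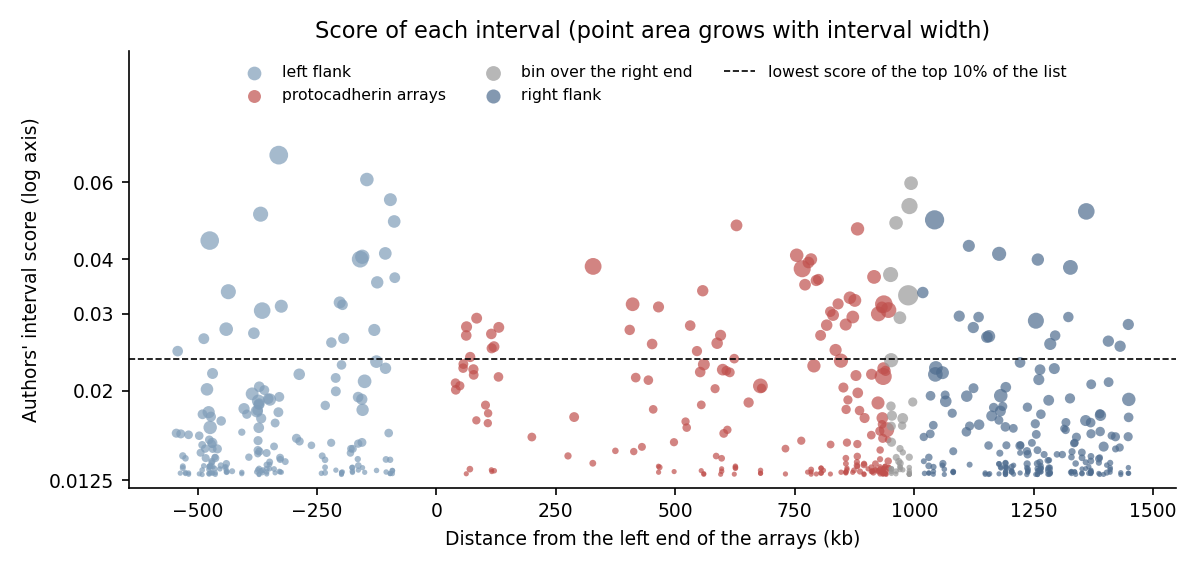
Authors' score of each of the 630 intervals (log axis) against the distance from the left end of the arrays in kb, with point area growing with width and the lowest high-score value of 0.0237 dashed. In the first 5 bins of the arrays 8 of 26 points lie on or above the dashed line, and in the last 2 array bins 10 of 85 do.

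Intervals of the arrays stood in smaller groups. After joining intervals within 500 bp, the arrays held 105 regions, or 5.53 per bin (4.52 to 6.69), the left flank 88, or 8.0 per bin (6.42 to 9.86), and the right flank 85, or 9.44 per bin (7.54 to 11.7). The ratio of the arrays to both flanks was 0.64 (0.50 to 0.82). Regions made of a single interval were 62.9% in the arrays, 51.1% in the left flank, 44.7% in the right flank and 51.3% on the autosomes. In the last 2 array bins they were 46.7%, with a mean of 2.83 intervals per region. Without these bins the arrays were at 69.3% and 1.49, and both flanks together were at 48.0% and 2.29. The median width of a region was alike, at 238 bp in the arrays, 242 bp in the left flank and 236 bp in the right flank. A high-score interval was present in 39.0% of array regions, 26.1% of left flank regions, 22.4% of right flank regions and 19.6% of autosomal regions.

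High-score intervals of the arrays had fewer neighbours at a distance of several kb than those of the flanks. The share with no other interval within 500 bp was 53.5% (23 of 43) in the arrays and 54.8% (23 of 42) in the flanks, against 42% on the autosomes. Within 5 kb, a high-score interval had a median of 2 other intervals in the arrays (interquartile range 1 to 5) and 5.5 in the flanks (2.25 to 7), and 4 on the autosomes. In the arrays 9 of 43 (20.9%) had no other interval within 5 kb, in the flanks 1 of 42, and on the autosomes 13.6%. All 9 of the arrays lay outside their last 2 bins. On chromosome 18 as a whole the share was 18.6% (163 of 878) and the median was 3 other intervals. The arrays were thus near their chromosome in this, and it was the flanks that differed.

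Sites of at least 200 bp recurred every few kb in a stretch near the right end of the arrays. For this, intervals of at least 200 bp were joined within 500 bp into sites, and the distance between the midpoints of neighbours was taken as a step. The 3 bins at 37800001 to 37950000 were singled out after the values had been seen, and held 23 sites, 18 of them with a high-score interval. Such an interval was also present at 23 of 42 sites of the left flank, 19 of 38 of the right flank and 31315 of 58622 on the autosomes. Since the stretch was picked, nothing is read from the difference. The sites were 209 to 802 bp wide, with a median of 320 bp, and their median score was 0.0304. The 22 steps had a median of 5.55 kb and an interquartile range of 4.89 to 6.84 kb, and ranged from 2.39 to 14.6 kb. Steps between 3 and 10 kb, a range also chosen after the values had been seen, made up 18 of 22 there. They made up 74.2% of the last 4 bins and 59.3% of the arrays, both of which include the picked stretch. Without the last 4 bins the arrays were at 40.9% (9 of 22). The share was 43.9% in the left flank, 32.4% in the right flank and 26.4% on the autosomes. Because the stretch and the range were picked for these steps, nothing is read from the differences between these shares. The SD of the steps was 0.46 times their mean in that stretch, 0.54 times in the last 4 bins and 1.85 times over the arrays. It was 0.87 times in the first 5 bins, 1.33 in the left flank, 0.90 in the right flank and 2.71 on the autosomes. The stretch was picked for its steps, so nothing is read from its low value either. Between sites of the final bin the steps ranged from 0.90 to 8.67 kb.

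As an example, 8 successive sites of this series began at 37815118, 37821248, 37828354, 37833756, 37839775, 37844726, 37849309 and 37853881. Each held a high-score interval except the site at 37839775, which scored 0.0228. The steps between them were 5.92, 7.10, 5.42, 6.06, 4.88, 4.58 and 4.57 kb. A later run of 5 sites, which began at 37874253, 37879886, 37885203, 37890466 and 37896344, followed one another at 5.67, 5.33, 5.23 and 5.99 kb. Whether these sites coincide with the variable exons of an array was not tested.

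The first 5 bins held a shorter series of 7 sites, at steps of 5.18 to 31.1 kb with a median of 7.39 kb. They began at 37112122, 37120449, 37127143, 37133944, 37164677, 37170180 and 37180273, and 6 of them held a high-score interval. With only 7 sites, nothing is read from this count against those of the flanks and autosomes above. Their scores were within a narrow range, 0.0224 to 0.0293. The next 10 bins held 16 sites with a wider spread of steps, from 2.37 to 76.6 kb, and 5 of the 15 steps were between 3 and 10 kb.

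**Figure D5:**
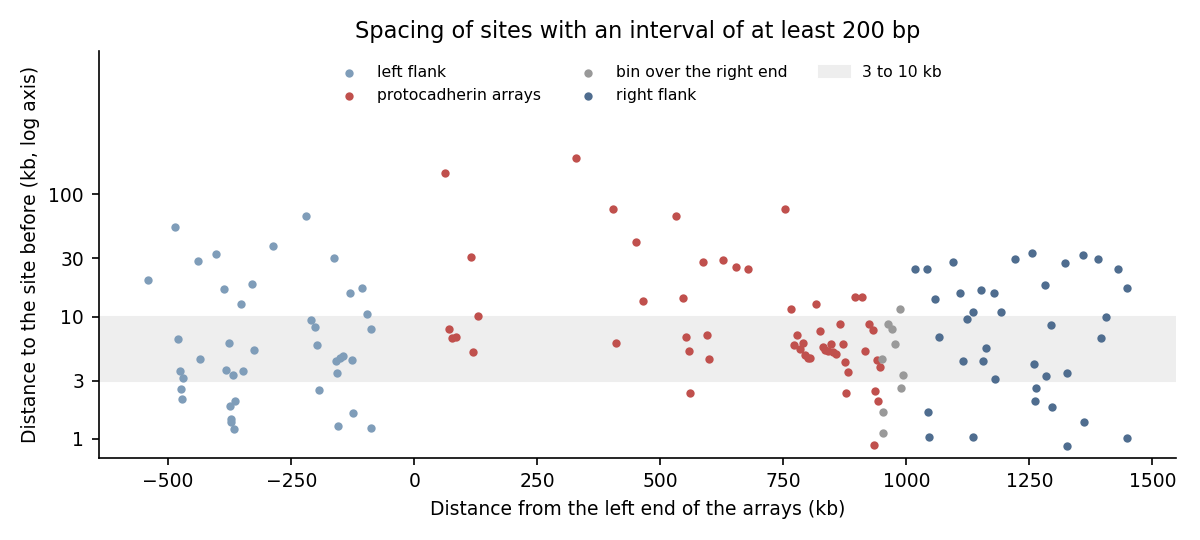
Distance from each site of at least 200 bp to the site before it (kb, log axis) against its distance from the left end of the arrays (kb), with the range of 3 to 10 kb shaded. Points between 750 and 900 kb gather near the median step of 5.55 kb, and the points above 40 kb in the arrays all lie before or at the first site of that series.

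The 5 longest stretches without an interval lay in the arrays or across their left end. The longest of the region ran from 36962812 to 37089666 (127 kb) and crossed the left end of the arrays. The interval before it, at 36962561 to 36962811, scored 0.0363, and the first interval after it, at 37089667 to 37089846, scored 0.0208. The next 4 were all inside the arrays, at 37249676 to 37325207 (75.5 kb), 37180531 to 37249534 (69.0 kb), 37730386 to 37780393 (50008 bp) and 37378180 to 37424422 (46.2 kb). Only an interval of 141 bp separated the stretches of 75.5 and 69.0 kb. Stretches of at least 20 kb took up 52.5% of the arrays, 36.1% of the left flank and 3.94% of the right flank. With a minimum of 10 kb the shares were closer, at 61.2%, 48.4% and 43.5%. The left flank shares include 87.2 kb of the 127 kb stretch that crosses into the arrays. These shares were not computed for the autosomes, so whether they are unusual was not tested. At the right end no gap marked the limit of the arrays. The interval at 38019750 to 38020126 (score 0.0294) was followed after 1 base by one at 38020128 to 38020144 (score 0.0134). Whether reads could be aligned throughout the arrays was not tested, so a stretch with no interval is not a measure of closed chromatin.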

How the data were processed

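The data were 1 list of intervals for the series. Alignment with Bowtie, version not given, to mm9 is named per the submitters' processing notes, and the list's own name gives F-Seq, which reports stretches where smoothed read density passes a threshold. Its settings, the role of the input and the samples listed were not given in the sources. The score of each interval is the authors' deposited value, of unstated scale. It was used only to rank and describe intervals within the list.

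Intervals were placed by midpoint and covered bases were clipped at bin edges. Starts were printed counted from 1. Work used Python 3.11.15, pandas 2.3.3, numpy 2.4.6, scipy 1.17.1 and matplotlib 3.10.9. Ratios of densities have exact conditional Poisson intervals, shares have exact binomial intervals, and the ratio of shares has a log-normal interval, all at 95% and for counting error only. Simulated intervals with a density ratio of 0.5 gave 0.49 on average in 20 simulations, and a share ratio of 2 gave 2.04. They were placed independently of each other, unlike the grouped intervals of the list. The simulations therefore checked the calculation only, not how far the ratios or their 95% intervals can be relied on here.

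The named intervals were, by score, the first 10 of the arrays and 5 of each flank, by width the first 5 and 3, the fullest bins, the 5 longest empty stretches and the intervals at the ends of the arrays. The members and these lists were chosen with earlier results of these data known. The planned description of promoter sequences was not made, since 0 of the 58 array genes matched the promoter table.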

Additional observations from a re-analysis of the deposited data

How the results depend on the processing

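Of 17 alternatives for the density ratio of arrays to flanks, 9 stayed within its interval around 0.52, 7 moved and 1 changed direction. It was 1.08 among the top 10% by score. It was 0.72 with intervals of at least 200 bp only, where its interval of 0.51 to 1.01 includes 1. It was 0.64 after joining within 500 bp, 0.67 against the nearest 250 kb of each flank and 0.43 without the densest bin of each. With alternatives added after seeing the data it was 0.33 and 0.28 without the last 2 and 4 array bins and 0.42 without the outermost array bin at each end. The ratio of covered bases stayed within 1.5 times of 0.63 in 16 of 17 alternatives, and was 0.35 without the last 4 array bins. Among the 16 it was highest, at 0.89, for the top 10% by score, where 1.54% of array bases and 1.74% of flank bases were covered. Placing intervals by start could not change this ratio. The ratio of high-score shares stayed within its interval around 2.06 in 16 of 17, and was 1.09 when high-score meant at or above the list median. The 16 include 1.46 with intervals of at least 200 bp only. They also include 1.54 against the nearest 250 kb of each flank, where the interval includes 1. Leaving out bins with no interval could not change this ratio. The causes were not tested. No paired analysis was possible because the list does not separate samples. No fit without a replicate was possible, since intervals carry no sample. Since depth is unknown, weak open sites may be unlisted.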
